A study of Mus musculus with 6 samples.

Results

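The genes described are receptors through which cells bind, sense or take up collagen. They were chosen by name from what their products are known to do, by a rule that uses no measured value. Earlier results of these data were known when they were chosen. Of 9 genes listed (*Itga1*, *Itga2*, *Itga10*, *Itga11*, *Itgb1*, *Ddr1*, *Ddr2*, *Lair1* and *Mrc2*), 7 had a probe set under their symbol among the 22206 probe sets tested, with 1 probe set each. *Itga1* and *Itga10* were not analysed here, since no probe set carried either symbol alone. Hearts of 3 *Col1a2*-/- mice (homozygous knockout, KO) and of 3 *Col1a2*+/- mice (heterozygous, HET) were profiled on Affymetrix Clariom S Mouse arrays, 1 mouse and 1 array per heart, when the mice were 2 months old. All mice were on the C57/BL6 background and untreated, and the heterozygous controls carry the knockout allele as well, so that a loss shared by both genotypes is not seen in this comparison. The allele is of the knockout-first type, so that genes near *Col1a2* may respond to the inserted DNA as well as to the loss of *Col1a2*. The sample labels describe the tissue as the entire heart, while the methods describe ventricles.

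Collagen receptors act in separate ways. Integrins are pairs of an α and a β chain that link collagen outside the cell to the actin cytoskeleton, and the α chains α1, α2, α10 and α11 all pair with β1, the product of *Itgb1*. The discoidin domain receptors, encoded by *Ddr1* and *Ddr2*, are tyrosine kinases that are switched on by triple-helical collagen itself. LAIR1 is an inhibitory receptor of immune cells, and Mrc2, also called Endo180 or uPARAP, carries collagen fragments into lysosomes. In the heart, fibroblasts are known to use DDR2 and integrins to sense fibrillar collagen, and cardiomyocytes use β1 integrins to anchor to the matrix around them. The comparison asks whether RNA of these receptors differed in hearts that make type I collagen without its α2 chain.

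The values are log2 signals, which the authors had normalized and summarized per probe set, and their median per array lay between 6.64 and 6.67. A gene was called dim where its log2 signal did not exceed 5.97, a limit under which 95% of 1452 probe sets for olfactory, vomeronasal and taste receptors lie. *Col1a2* itself was lower in KO hearts, with log2 signals of 6.86, 6.84 and 6.48 against 9.47, 9.06 and 9.18 in HET hearts, and was the only probe set of 22206 with an adjusted p under 0.05 from limma (log2 difference −2.51, adjusted p = 0.00626). That adjusted p was 0.0948 without HET heart 3294 and 0.0562 without KO heart 2770. HET heart 3294 stood apart from the others. On the log2 scale it gave 13.47 for the atrial gene *Myl7*, where the others gave 8.07 to 12.08, it gave 8.33 for the brown fat gene *Ucp1*, where they gave 3.60 to 4.30, and it gave 2.65 for the Y-linked gene *Uty*, where they gave 11.58 to 11.90. The labels give no sex. By its *Uty* signal HET heart 3294 is read as female and the others as male, so that the only female heart is in the HET group. The cardiomyocyte gene *Myh6* had log2 signals between 18.66 and 18.82 in all 6 hearts. In RNA of whole tissue, fewer cells of a type and less RNA per cell cannot be told apart.

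No difference in the 7 receptor genes passed a test. With an unadjusted p under 0.05 by limma, 0 of the 7 were higher and 0 were lower in KO hearts, where 5.45% of all probe sets passed in either direction, 2.67% as higher and 2.79% as lower. After Benjamini-Hochberg adjustment over all probe sets 0 of the 7 passed, with adjusted p from 0.955 to 0.982, where 0.00450% of all probe sets passed. KO and HET hearts overlapped in 7 of 7, where 10.6% of all probe sets did not overlap and 5.13% did not overlap and were higher in KO hearts. The log2 differences, KO minus HET, lay between −0.17 and 0.17, with 5 above 0 and 2 below. Their median was 0.06, beside −0.00062 over all probe sets, and the median of their sizes without sign was 0.08, beside 0.15 over all probe sets.

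The intervals bound the size of the differences above the dim limit. They were set beside a 1.5-fold change, a comparison added after the values were seen. For the 5 receptors above the dim limit, the 95% interval from limma, not adjusted for the number of genes, lay inside a 1.5-fold change in either direction in 5 of 5, as it did for 51.7% of all probe sets above that limit. The ends farthest from 0 were −0.38 and 0.56 on the log2 scale, fold changes of 0.767 and 1.48, both for *Lair1*. With 1 heart left out this held for 3 of the 5 without HET heart 2769 or any of KO hearts 2767, 2770 and 3200, and for 4 without HET heart 3201 or HET heart 3294. The intervals of the dim signals of *Itga2* and *Itga11* also lay inside 1.5-fold, where 43.0% of all probe sets did, but they do not bound a change in those receptors.

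**Figure D1:**
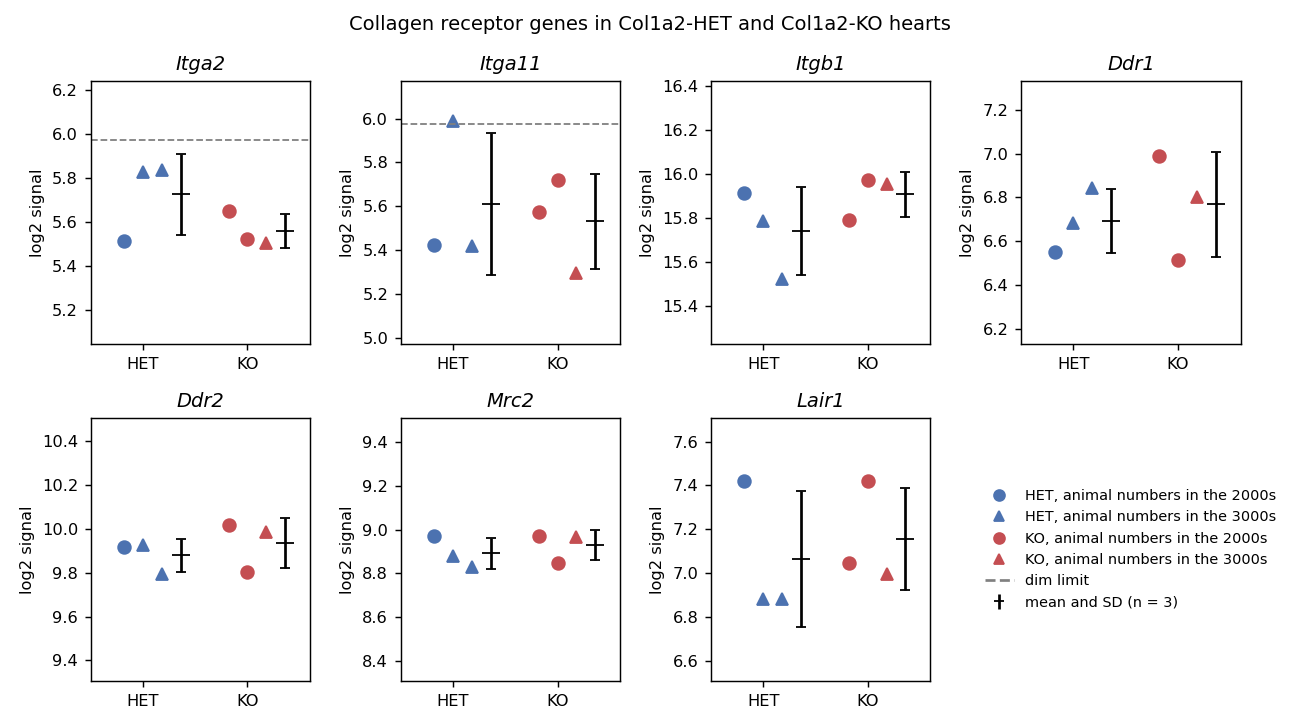
Log2 signal of each collagen receptor gene in each heart (y axis, each panel spanning the same height), with HET hearts in blue and KO hearts in red, circles and triangles for the 2 series of animal numbers, and the mean with its SD at the right of each group (n = 3). The hearts of the genotypes overlap in 7 of 7 panels, and *Itga2* and *Itga11* lie around or under the dashed dim limit of 5.97.

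The β1 chain gene *Itgb1* had the largest upward difference of the 7, and it was within the spread of the hearts. *Itgb1* encodes the chain shared by all collagen-binding integrins. Its log2 signal was 15.91, 15.79 and 15.52 in HET hearts 2769, 3201 and 3294, and 15.79, 15.98 and 15.96 in KO hearts 2767, 2770 and 3200. The KO hearts were at or above the middle HET heart, and the lowest KO heart lay under the highest HET heart. The mean was 15.91 ± 0.10 in KO and 15.74 ± 0.20 in HET hearts (SD, n = 3 each), a log2 difference of 0.17 (95% interval −0.22 to 0.55, adjusted p = 0.956 from limma). The exact permutation test of the difference in means gave p = 0.2, two-sided, where 0.1 is the smallest p that 3 hearts against 3 allow. *Itgb1* was lowest in HET heart 3294, which had the most atrial RNA and also stood apart in its *Ucp1* and *Uty* signals. The log2 difference of *Itgb1* was 0.06 without that heart, against 0.25 without HET heart 2769 and 0.22 without KO heart 2767. When the fit also held the mean signal of 6 atrial genes, the difference was 0.16. The cause of the low value in HET heart 3294 was not tested.

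Both measured α chains gave dim signals. *Itga2*, known from platelets and epithelia, had log2 signals of 5.51, 5.83 and 5.84 in HET hearts and 5.65, 5.52 and 5.50 in KO hearts, under the dim limit in 6 of 6 hearts. *Itga11*, known as the fibroblast receptor for fibrillar collagen, had 5.43, 5.99 and 5.42 in HET hearts and 5.57, 5.72 and 5.30 in KO hearts, and only HET heart 3201 was above the limit. Signals under the limit are not told apart here from those of the olfactory, vomeronasal and taste receptors that set it. For that reason no fold change is given for either gene. The log2 differences of the dim signals were −0.17 for *Itga2* (95% interval −0.54 to 0.21, exact permutation p = 0.3, two-sided) and −0.08 for *Itga11* (−0.55 to 0.39, exact permutation p = 0.8, two-sided). The sign for *Itga11* depended on single hearts, since its log2 difference was 0.11 without HET heart 3201 and 0.04 without KO heart 3200. The platelet marker *Itga2b*, an integrin chain of megakaryocytes, had log2 signals of 8.35 to 8.72 in HET and 8.22 to 8.59 in KO hearts.

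The discoidin domain receptor genes were above the dim limit in all 6 hearts, and their differences between the genotypes were within the spread of the hearts. *Ddr2*, which encodes the receptor of fibroblasts and other mesenchymal cells for fibrillar collagen, had log2 signals of 9.92, 9.93 and 9.79 in HET hearts and 10.02, 9.80 and 9.98 in KO hearts. The hearts of the genotypes were interleaved, with the highest and the second highest value in KO hearts and the lowest in HET heart 3294. The mean was 9.93 ± 0.12 in KO and 9.88 ± 0.07 in HET hearts (SD, n = 3 each), a fold change of 1.04 with a 95% interval of 0.814 to 1.33 (exact permutation p = 0.5, two-sided). *Ddr1*, known mainly from epithelia, had 6.55, 6.69 and 6.84 in HET hearts and 6.99, 6.51 and 6.80 in KO hearts. KO hearts held both its highest and its lowest value. Its fold change was 1.05 (95% interval 0.793 to 1.40, exact permutation p = 0.8, two-sided), and its log2 difference was −0.033 without KO heart 2767. The epithelial marker *Epcam* was dim, with 4.08 to 4.47 in HET and 3.95 to 4.41 in KO hearts.

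*Mrc2*, the gene of the collagen uptake receptor, was the steadiest of the 7. Its log2 signal was 8.97, 8.88 and 8.83 in HET hearts and 8.97, 8.85 and 8.97 in KO hearts. The highest HET heart and the upper pair of KO hearts had nearly the same value. The SD within a genotype was 0.07, and only 2.05% of all probe sets had a smaller one. The mean was 8.93 ± 0.07 in KO and 8.89 ± 0.07 in HET hearts (SD, n = 3 each), a fold change of 1.03 with a 95% interval of 0.809 to 1.30 (exact permutation p = 0.6, two-sided). *Ddr2* was nearly as steady, with 5.80% of all probe sets having a smaller SD within a genotype, while *Itga11* and *Lair1* were near the middle, with 60.2% and 59.9%.

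*Lair1*, the immune inhibitory receptor gene, varied more between hearts of the same genotype than between genotypes. Its log2 signal was 7.42, 6.88 and 6.88 in HET hearts 2769, 3201 and 3294, and 7.04, 7.42 and 6.997 in KO hearts 2767, 2770 and 3200. HET heart 2769 and KO heart 2770 were high to the same extent. Both have animal numbers that begin with 2, as does KO heart 2767, which had 7.04. The fold change was 1.07 (95% interval 0.767 to 1.48, exact permutation p = 0.6, two-sided). The log2 difference ranged from −0.043 without KO heart 2770 to 0.27 without HET heart 2769, and was −0.038 with the numbering series of the animals as a block. Leukocyte and macrophage markers were measured beside it. Their mean log2 signal over 11 of 12 genes lay between 8.29 and 8.45 in HET and between 8.42 and 8.49 in KO hearts. At an unadjusted p under 0.05 by limma 1 of the 11 was higher, where 2.67% of all probe sets were. This was the complement gene *C1qa* (log2 difference 0.35, adjusted p = 0.906 from limma), a call lost whichever heart was left out. Of the 11, 9 had a higher and 2 a lower mean in KO hearts, and the lower ones were the adaptor gene *Tyrobp* (log2 difference −0.45, adjusted p = 0.906 from limma) and the endotoxin co-receptor gene *Cd14* (−0.24, adjusted p = 0.937). The pan-leukocyte gene *Ptprc* had 8.45, 8.14 and 8.54 in HET and 8.75, 8.45 and 8.66 in KO hearts, and was not highest in the hearts with the highest *Lair1*. The part of leukocyte content in the *Lair1* values was not tested.

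**Figure D2:**
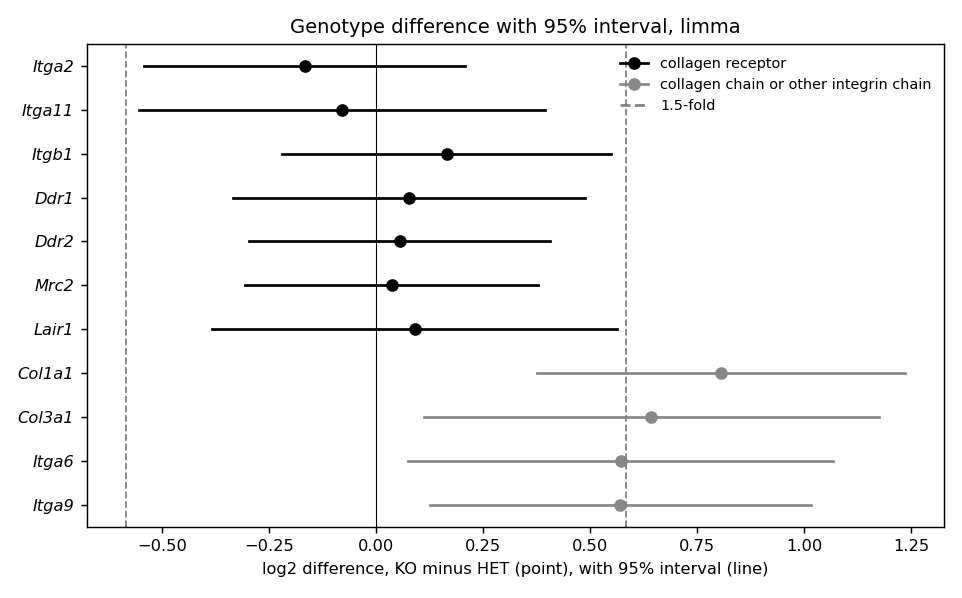
Log2 difference, KO minus HET (points), with its 95% interval from limma (lines), for the 7 collagen receptor genes (black) and for 2 collagen chains and 2 other integrin α chains (grey), with dashed lines at a 1.5-fold change. The intervals of the receptors cross 0 and stay inside the dashed lines, while those of *Col1a1*, *Col3a1*, *Itga6* and *Itga9* lie above 0. The intervals of the dim *Itga2* and *Itga11* do not bound a change in those receptors.

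The animal numbers in the labels form 2 series, with 1 HET and 2 KO hearts whose numbers begin with 2 and 2 HET and 1 KO hearts whose numbers begin with 3. Within these series the receptor differences mostly did not keep their sign. In 6 of the 7 genes the log2 difference had opposite signs in the 2 series, and *Ddr1* was the exception, with 0.20 and 0.04. For *Itgb1* it was −0.03 in the first series and 0.30 in the second. For *Lair1* it was −0.19 and 0.11, for *Ddr2* −0.01 and 0.12, and for *Mrc2* −0.06 and 0.11. Each of these rests on 3 hearts and has no test. The 6 genes include the dim *Itga2* and *Itga11*. The share of all probe sets with opposite signs was not counted, so the count of 6 is not a result about the receptors.

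**Figure D3:**
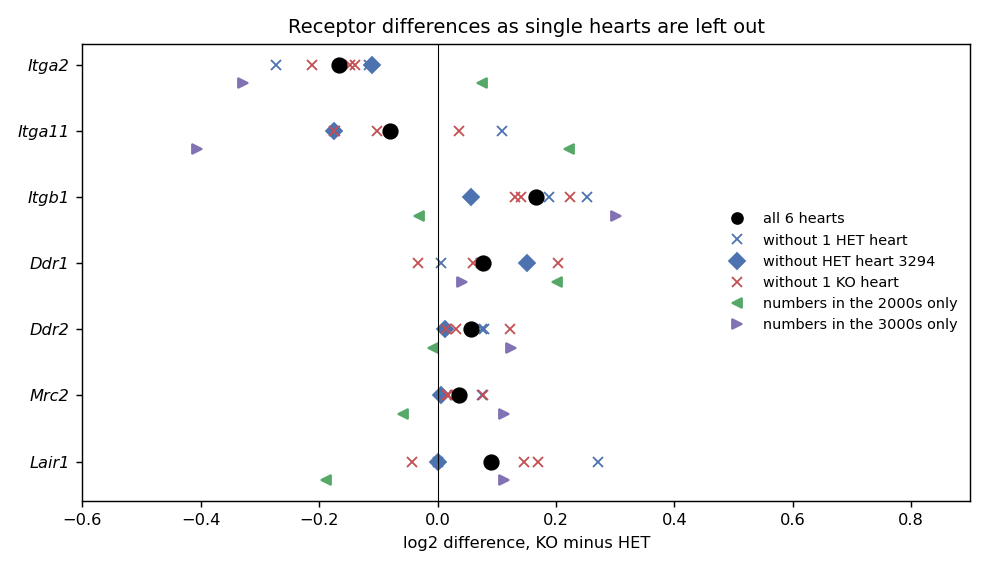
Log2 difference, KO minus HET, of each collagen receptor gene with all 6 hearts (black), with 1 HET heart (blue) or 1 KO heart (red) left out, and within each series of animal numbers (triangles). The triangles lie on opposite sides of 0 for 6 of the 7 genes, and leaving out HET heart 3294 (blue diamonds) moves *Itgb1* to 0.06.

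*Ddr2* and *Mrc2*, both known from fibroblasts, had the highest correlation from heart to heart of the receptor pairs. Over 6 hearts their Pearson's r was 0.88 (exact permutation p = 0.025) and Spearman's rho 0.83 (exact permutation p = 0.0583). Of the 10 pairs among the 5 receptors above the dim limit this r was the highest, and it did not pass after Benjamini-Hochberg adjustment over the 10 (exact permutation, adjusted p = 0.25 for r and 0.583 for rho). Without the 2 hearts farthest from the median of *Ddr2*, r was 0.49. Leaving out extreme hearts narrows the range of *Ddr2*, so the lower r cannot show whether the relation rests on them. Pearson's r was 0.86 after each genotype's mean was subtracted. Both genes were low in HET heart 3294 and KO heart 2770. The lowest r of the 10 was −0.72, between *Ddr1* and *Lair1* (exact permutation p = 0.133, adjusted p = 0.539). Spearman's rho for this pair was −0.43 (exact permutation p = 0.419, adjusted p = 0.699), and r was −0.81 without the 2 hearts farthest from the median of *Ddr1*.

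The genes whose signal followed *Itgb1* and *Lair1* most closely over the 6 hearts were sought among 11521 probe sets with a symbol and a signal above the dim limit. With *Itgb1*, the highest Pearson's r was 0.993 for the splicing factor gene *Prpf31*, 0.992 for *Rdx*, which encodes the membrane-to-actin linker radixin, and 0.992 for the myosin gene *Myo1d*. With *Lair1* it was 0.996 for the nucleolar gene *Nol11*, 0.975 for the histone methyltransferase gene *Nsd2* and 0.974 for the RNA capping enzyme gene *Rngtt*. These values describe the closest of many genes over few hearts and carry no test.

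The collagens, the ligands of these receptors, mostly had higher means in KO hearts. Of 15 collagen chain genes other than *Col1a2*, 14 had a higher mean in KO hearts. The share of all probe sets with a higher mean was not counted. At an unadjusted p under 0.05 by limma 2 were higher and 0 were lower, where 2.67% and 2.79% of all probe sets were. Of the 15, 0 passed the adjusted p. The median log2 difference of the 15 was 0.26 beside −0.00062 over all probe sets. The 15 include the dim *Col2a1*, *Col5a1*, *Col8a1*, *Col10a1* and *Col17a1*, and the median is the value of *Col8a1*. *Col1a1*, which encodes the α1 chain of type I collagen, had log2 signals of 8.71, 8.77 and 8.86 in HET hearts and 9.94, 9.47 and 9.36 in KO hearts. The hearts did not overlap, and the log2 difference was 0.81 (standard error 0.19, adjusted p = 0.838 from limma). *Col3a1*, which encodes the fibrillar type III collagen chain and is a ligand of DDR2, had 11.44, 10.98 and 10.94 in HET and 12.21, 11.59 and 11.48 in KO hearts. Its lowest KO heart lay just above the highest HET heart, and its unadjusted p of 0.0229 was 0.0679, 0.0751 and 0.0872 without HET heart 3201, HET heart 3294 and KO heart 2767. The difference between collagens and receptors was itself not tested.

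Of 8 other α chains that pair with β1, 2 had higher signals with an unadjusted p under 0.05 by limma, where 2.67% of all probe sets did. Of the 8, 0 were lower and 0 passed the adjusted p, with a median log2 difference of 0.10. The 2 higher ones were receptors for other matrix proteins. *Itga6*, which encodes a laminin receptor chain, had log2 signals of 11.90, 11.71 and 11.25 in HET hearts and 12.48, 12.13 and 11.96 in KO hearts. The lowest KO heart lay just above the highest HET heart, and the log2 difference was 0.57 (standard error 0.22, adjusted p = 0.906 from limma). Its unadjusted p of 0.0285 was 0.102 without HET heart 3294, 0.105 without KO heart 2767 and 0.0619 with the numbering series as a block. *Itga9*, which encodes a receptor chain for tenascin and related ligands, had 10.93, 11.05 and 11.00 in HET and 11.56, 11.90 and 11.23 in KO hearts, a log2 difference of 0.57 (standard error 0.20, adjusted p = 0.879 from limma). Its HET hearts were close together, and the unadjusted p of 0.0176 was 0.0717 without KO heart 2770. The 6 others, *Itga3*, *Itga4*, *Itga5*, *Itga7*, *Itga8* and *Itgav*, had log2 differences between −0.04 and 0.20.

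**Figure D4:**
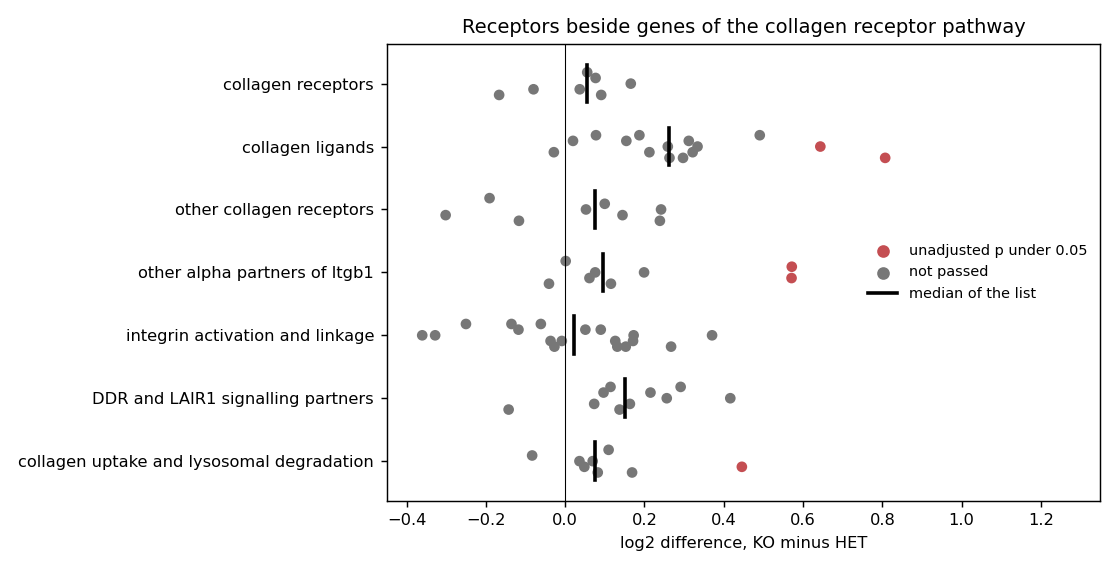
Log2 difference, KO minus HET, of each measured gene (points) in the collagen receptors and in 6 lists of related genes, *Col1a2* left out, with genes whose unadjusted p by limma is under 0.05 in red and the median of each list as a bar. The median is 0.06 for the receptors and 0.26 for the collagen ligands, and the red points are *Col1a1*, *Col3a1*, *Itga6*, *Itga9* and *Plau*.

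Genes that act with the receptors inside and around the cell gave few calls. Over all probe sets, 5.45% passed an unadjusted p under 0.05 by limma in either direction. Of 8 genes for other collagen receptors and their adaptors, 0 passed an unadjusted p under 0.05, with a median log2 difference of 0.08 and 5 of 8 above 0. Among these, *Mrc1*, the macrophage relative of *Mrc2*, had log2 signals of 12.16, 12.09 and 11.75 in HET and 12.18, 12.08 and 12.44 in KO hearts, and the platelet collagen receptor gene *Gp6* was dim in 6 of 6 hearts. Of 18 measured genes of integrin activation and linkage to actin, such as the talin gene *Tln1*, the kindlin gene *Fermt2* and the integrin-linked kinase gene *Ilk*, 0 passed, with a median of 0.02 and 9 of 18 above 0. The log2 differences of these 3 were 0.15, 0.05 and −0.03. Of 10 signalling partners and proteases of the DDRs and LAIR1, 0 passed, with a median of 0.15 and 9 of 10 above 0.

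Of 8 measured genes of collagen uptake and lysosomal degradation, 0 passed the adjusted p, and the median log2 difference was 0.08. At an unadjusted p under 0.05 by limma 1 was higher, where 2.67% of all probe sets were. This was *Plau*, the gene of urokinase, whose receptor associates with Mrc2 on the cell surface. *Plau* had log2 signals of 5.99, 6.20 and 5.87 in HET hearts and 6.47, 6.43 and 6.49 in KO hearts, close to the dim limit. The hearts did not overlap, and the log2 difference was 0.45 (standard error 0.16, adjusted p = 0.886 from limma). The unadjusted p of 0.0216 was 0.0544, 0.0614 and 0.0557 without HET heart 2769, HET heart 3294 and KO heart 3200. The other 7 did not pass, among them the urokinase receptor gene *Plaur* and the collagen-degrading cathepsin gene *Ctsk*, with log2 differences of 0.08 and 0.04.

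Markers of the cells that carry these receptors were measured in the same hearts. At an unadjusted p under 0.05 by limma, 2.67% of all probe sets were higher and 2.79% lower in KO hearts. Of 11 measured fibroblast markers, 2 had higher signals with an unadjusted p under 0.05 by limma, the matricellular protein gene *Postn* (log2 difference 1.03, adjusted p = 0.814) and the microfibril gene *Mfap5* (0.52, adjusted p = 0.872), 0 were lower, and the median was 0.10. Their mean log2 signal per heart lay between 10.71 and 10.85 in HET and between 10.89 and 11.12 in KO hearts, without overlap. Without *Postn* the mean over the other 10 overlapped, with 10.77 to 10.92 in HET and 10.84 to 11.16 in KO hearts. Of the 11, 8 had a higher and 3 a lower mean in KO hearts, and the lower ones were *Tcf21* (log2 difference −0.42), *Gsn* (−0.27) and *Dcn* (−0.04). The fibroblast gene *Pdgfra* was not analysed here. Of 10 markers of smooth muscle and pericytes, 2 were higher at an unadjusted p under 0.05 by limma. These were *Notch3* (0.53, adjusted p = 0.872) and *Mcam* (0.86, adjusted p = 0.872), and the median of the 10 was 0.23. Of the 10, 9 had a higher mean in KO hearts, while *Acta2* had a lower one (log2 difference −0.54). The mean log2 signal of the 10 was 9.71 to 10.01 in HET and 10.05 to 10.14 in KO hearts. Of 7 endothelial markers 0 passed, and *Pecam1* had 12.31 to 12.59 in HET and 12.51 to 12.70 in KO hearts. Of 9 cartilage markers, 0 passed, and *Acan*, the aggrecan gene, had 6.43 to 7.16 in HET and 7.08 to 7.23 in KO hearts. The part of cell content in the receptor values was not tested.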

How the data were processed

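Total RNA of 6 hearts was hybridized to Affymetrix Clariom S Mouse arrays after labeling with a Pico kit. The authors normalized and summarized the arrays to 1 log2 signal per probe set. As software, Transcriptome Analysis Console stands in the methods and Expression Console in the submitters' processing notes. The method of normalization is not given in the sources used here. The values were used as deposited. Of 28846 entries, 6640 control probe sets were left out. Symbols came from GEO's platform table, and 2634 of 22206 probe sets, those with no symbol or with several, were treated as having none. The brightest probe set was to stand for a gene, and each measured receptor had 1. Genotypes were compared with lmFit and eBayes (limma 3.58.1, R 4.3.3), KO minus HET, without covariates, with Benjamini-Hochberg adjustment over all 22206. Single genes were also tested by exact permutation. The receptors and the gene lists were chosen with earlier results of these data known, and no list was tested as a set. Genes named were the receptors, *Col1a2* and *Col1a1*, up to 3 of each list with the smallest unadjusted p under 0.05 and a signal above the dim limit, defining markers, and for *Itgb1* and *Lair1*, the receptors above the limit with the smallest p, the 3 genes most correlated with each. *Tyrobp*, *Cd14*, *Tcf21*, *Gsn*, *Dcn*, *Acta2*, *Mrc1*, *Gp6*, *Tln1*, *Fermt2*, *Ilk*, *Plaur*, *Ctsk*, the dim collagen chains and the other α chains were added after their values were seen, as was the comparison with a 1.5-fold change. With 3 arrays per genotype the precision is low. The code was tested on simulated data. Figures were drawn with matplotlib 3.10.9.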

Additional observations from a re-analysis of the deposited data

How the results depend on the processing

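The receptor results were recomputed with quantile normalization, centred medians, only probe sets above the dim limit (5 of the 7 receptors), array weights, Student's t-test, a robust prior with a trend, the numbering series of the animals as a block, atrial marker level as a covariate, 1 probe set per gene, and each heart left out. In each of these, 0 receptors passed an unadjusted or adjusted p under 0.05. The smallest adjusted p of a receptor was 0.855 and the smallest unadjusted p 0.165. The median log2 difference lay between 0.0051 and 0.08 with each heart left out and between 0.03 and 0.08 otherwise. The number of receptors with an interval inside 1.5-fold, 7 with all hearts, was 3 to 6 with 1 heart left out, 5 with the trend and robust prior, 5 with the t-test, and 6 with the block or array weights. Of the 5 above the dim limit, a count added after the data were seen, it was 3 to 4 with 1 heart left out, 4 with the t-test and 5 otherwise. The log2 differences are the same by construction with the t-test, the robust prior, only probe sets above the dim limit and 1 probe set per gene. Values from these settings could not change sign. Of 103 receptor values, these included, 98 kept their sign. The exceptions were *Lair1* with the block, at −0.038, and values with 1 heart left out, which ranged from −0.033 to 0.20 for *Ddr1*, from −0.17 to 0.11 for *Itga11* and from −0.043 to 0.27 for *Lair1*. For *Itgb1* they ranged from 0.06 to 0.25. The cause was not tested. *Col1a2* had −2.51 with the t-test, where it did not pass (adjusted p = 0.546, with 0.0948 at most with a heart left out), and −2.60 to −2.39 with each heart left out. The other probe sets of a receptor could not be compared, since each had 1. The paper compared littermates of the same age, but the labels name no litters, so no paired analysis was made.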
